A study of Haemaphysalis flava with 2 samples.

Results

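Contigs named for muscle and actin cytoskeleton proteins were compared between salivary glands of engorged and of semi-engorged Haemaphysalis flava, a blood-feeding hard tick. A contig is a transcript stretch assembled from the reads, and its name is that of the best-matching UniProt protein, often from another species. A contig was kept when that name held actin, myosin, tropomyosin, troponin, titin, twitchin, paramyosin, filamin, cofilin, profilin, calponin or gelsolin, and names that held dynactin, centractin, lactin, interacting or 2 like strings were left out. The rule found 127 of 54357 contigs. They carry 75 different names and 94 different best matches. No name held twitchin, filamin or cofilin. Of the 127, 38 have a muscle-type name (troponin, tropomyosin, paramyosin, titin, a myosin called muscle, or the alkali light chain). A general actin or myosin name is held by 81. The other 8 were set apart as word matches only (contactin, attractin, cactin and the like). Some of these 8 do name actin, as a suppressor of actin or an actin-dependent regulator.

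Each stage was measured with 1 library of polyadenylated RNA from dissected glands, with totals of 57892372 engorged and 54039984 semi-engorged reads on contigs. The series text speaks of 100 glands, from 50 ticks of each stage, and the labels give no strain, age or host. With 1 library per stage no difference below has a replicate check, no p-value was computed, and every value describes these libraries. In whole glands, fewer cells of a type and less RNA per cell cannot be told apart.

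Actin polymerises into filaments that serve in every cell as a cortex and as tracks, and in muscle as the thin filaments of the sarcomere. Myosins are the motors that pull on them. In muscle, troponin and tropomyosin make the thin filament sensitive to calcium, paramyosin forms the core of invertebrate thick filaments, and titin-like proteins span the sarcomere. In other cells, profilin, capping proteins and the Arp2/3 complex control filament assembly. Tick salivary acini hold secretory cells and myoepithelial cells, whose contraction helps to expel saliva, and the glands degenerate after engorgement.

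Several contigs with sarcomere names were lower in the engorged library. Troponin T, troponin I, a tropomyosin, both abundant paramyosins, the myosin alkali light chain, and 2 of the 3 heavy chains named skeletal or cardiac muscle were all at least 2.84-fold lower there; these were picked out after their values were seen, and the other 4 paramyosin and tropomyosin contigs, none of them called, had ratios of 1.47 to 3.73. The third heavy chain named skeletal or cardiac muscle was 3-fold higher. The 2 most abundant actins differed by at most 1.12-fold between libraries. Most contigs called muscle or smooth muscle myosin heavy chain did not share this pattern. Of 19 myosins with a muscle name, 8 were called on the engorged side by the size rule given next. That is 42.1%, against 13.0% of all tested contigs, or 20.7% of those with at least 100 reads, and some of the 8 share a best match.

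Counts were set against all contigs with a fixed size rule. Read counts were scaled to CPM, counts per 1000000 in that library. After 1 CPM was added to both values, a log2 ratio of 1 or more put a contig on the side of that library, so a called contig had at least 1 CPM on its higher side. Contigs with fewer than 20 reads in all were not tested for this. Folds in the text are plain ratios of CPM, and their exact Clopper-Pearson 95% intervals cover counting error only. Of the 127 contigs, 119 were tested, and 21 were called on the engorged and 15 on the semi-engorged side. These are 17.6% and 12.6% of those tested, against 13.0% and 15.5% of all 47965 tested contigs, so as a whole the set lay near the background. Its median log2 fold was 0.23, against -0.05 for all tested contigs. Abundance matters for such counts: among contigs with at least 100 reads the background was 20.7% and 22.4%, and the 101 members at that depth gave 19.8% and 14.9%.

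The muscle-type names counted 8 on the engorged and 7 on the semi-engorged side of 32 tested, 25% and 21.9%. The general names counted 13 and 8 of 79, 16.5% and 10.1%. Of all tested contigs 13.0% and 15.5% were called. Among contigs with at least 100 reads, the shares were 30.4% and 30.4% of 23 muscle-type names and 18.3% and 11.3% of 71 general names. The background at that depth was 20.7% and 22.4%. The counts moved with the scaling, as did those of all contigs. With the median ratio of well-covered contigs set to 0 the muscle-type counts were 6 and 8 and the general counts 9 and 8. With totals that left out the 50 most abundant contigs they were 10 and 7, and 19 and 7. Over all 47965 tested contigs, the counts of 6257 and 7421 became 4982 and 8541, and 8719 and 7823, under these scalings. A pseudocount of 0.1 CPM gave 12 and 10, and 19 and 9 for the members, a setting in which all contigs were not counted. The muscle-type median was -0.10 with quartiles of -0.79 and 1.02, and the general median was 0.23 with quartiles of -0.22 and 0.70. The middle of the muscle-type names thus lay near 0 while its members spread to both sides. Summed over members, muscle-type names took 0.0591% of engorged and 0.0504% of semi-engorged reads, and general names 0.616% and 0.564%. The direction of either sum is not given, since it turned with the scaling.

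**Figure D1:**
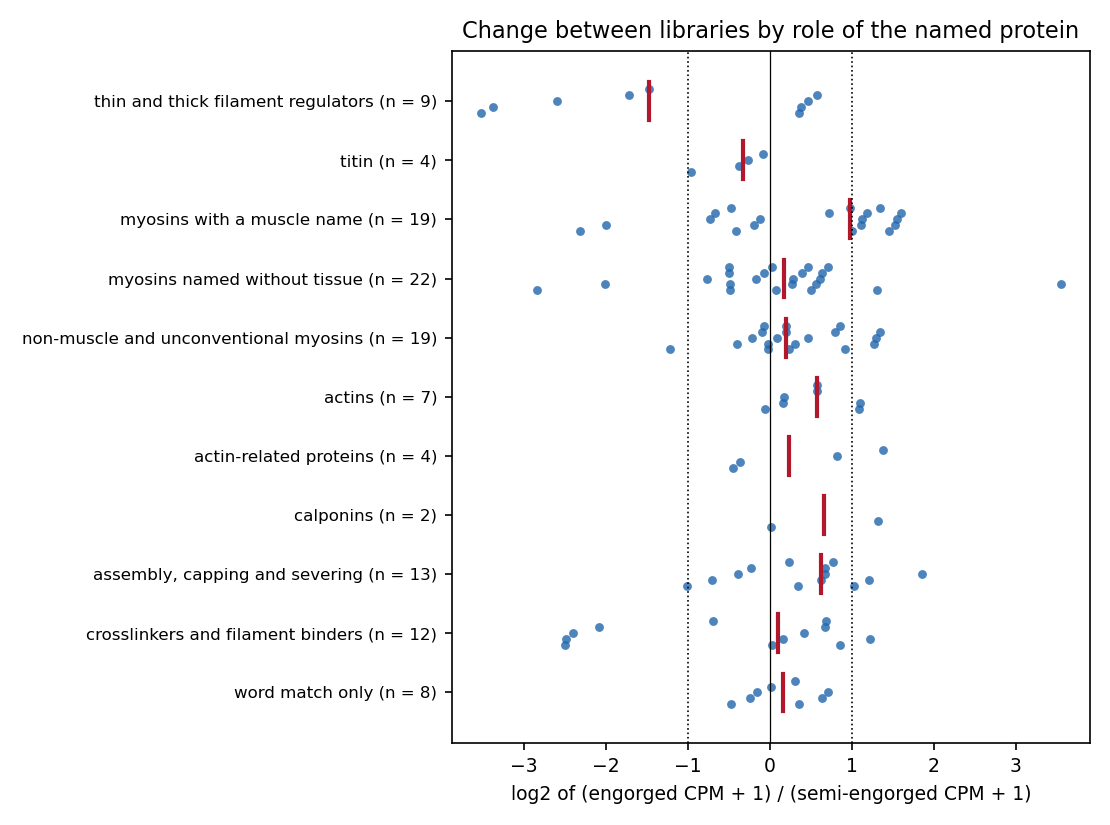
Each point is 1 tested contig, placed by its log2 ratio of engorged over semi-engorged CPM (1 added to both) and sorted into rows by role, and red bars are row medians. Dotted lines mark the log2 fold of 1 used for calls. The filament regulators split into a group from -3.53 to -1.48 and a group from 0.36 to 0.58, and the crosslinkers have 4 contigs below -2.

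Troponins, tropomyosins and paramyosins are the regulatory and structural partners of the muscle filaments. They came in 9 contigs, all tested, of which 0 were called on the engorged and 5 on the semi-engorged side, 55.6% against the background of 15.5%, or 22.4% among contigs with at least 100 reads. Their median log2 fold was -1.48, and with the 3 other scalings tried it ran from -1.71 to -1.26.

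Troponin T (contig_25684), which anchors the troponin complex to tropomyosin, had 30 engorged and 800 semi-engorged reads. It was 28.6-fold lower in the engorged library (95% interval 19.9 to 42.6). Troponin I (contig_36086), the inhibitory subunit, had 11 reads against 336 and was 32.7-fold lower (18.1 to 66.2). Both troponins thus had few reads in the engorged library. No contig name held troponin C. A tropomyosin (contig_31165), the coiled coil that lies along the thin filament, had 154 reads against 596 and was 4.15-fold lower (3.47 to 4.98). A paramyosin (contig_27282) had 84 reads against 1478 and was 18.8-fold lower (15.1 to 23.8). The most abundant paramyosin (contig_2078) had 1931 reads against 5113, 2.84-fold lower (2.69 to 2.99).

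The remaining 4 contigs of these families lay on the other side, at low counts. A paramyosin (contig_22033) had 361 engorged and 229 semi-engorged reads, a ratio of 1.47 (1.24 to 1.74). Another paramyosin (contig_32072) had 48 against 12, and tropomyosins contig_30339 and contig_43438 had 37 against 15 and 30 against 9. None of the 4 was called. Thus both tropomyosin and paramyosin held contigs on either side, with the more abundant ones lower in the engorged library. The 4 contigs whose best match is a Haemaphysalis protein (troponin T, troponin I, tropomyosin contig_31165 and paramyosin contig_27282) were all called lower. Of the 5 with a match in another tick 1 was. These are 100% and 20%, against 15.5% of all tested contigs, or 22.4% of those with at least 100 reads. But 3 of the 5 lay below 1 CPM in both libraries, too low for a call at any ratio, so these counts cannot be compared. This division by matched species was made after the values were seen.

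Titin, the giant elastic protein of the sarcomere, was named by 10 contigs, of which 6 had fewer than 20 reads in all. The deepest (First_Contig1092) had 41 engorged and 125 semi-engorged reads, 3.27-fold lower (2.28 to 4.77), with a log2 fold of -0.96 just short of the call. The next (contig_17038) had 22 against 43 and contig_46058 had 6 against 18. A contig whose best match is human titin (contig_37289) had 16 against 19, and the next below it, contig_41130, had 8 against 10. The 4 tested contigs had log2 folds from -0.96 to -0.08, and the 10 summed to 125 against 243 reads.

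Myosins with a muscle name lay on both sides. Of 19 contigs, 8 were called on the engorged side, 42.1% against the background of 13.0%, and 2 on the other, 10.5%. Most of the 19 have at least 100 reads, where the background was 20.7% and 22.4%. The 8 calls are not 8 separate genes for certain: contig_880 and contig_9134 share a best match, as do contig_8337 and contig_6878. Their median log2 fold was 0.98, from 0.81 to 1.25 under other scalings, and the range was -2.32 to 1.60.

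The 2 called lower in the engorged library were a light chain and a heavy chain. The myosin alkali light chain (contig_19658), the essential light chain that stiffens the lever arm of the motor, had 207 reads against 1183 and was 6.12-fold lower (5.28 to 7.13). A heavy chain named skeletal or cardiac muscle (contig_22276) had 124 against 625 and was 5.40-fold lower (4.45 to 6.60). Its partner with the same best match (contig_22277) had 10 against 47, a similar ratio of 5.04 (2.51 to 11.2), but was too low in CPM to be called.

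On the engorged side, a muscle myosin heavy chain (contig_880) had 8672 reads against 2635, 3.07-fold higher (2.94 to 3.21). It was the most abundant of all muscle-type contigs. A contig named for striated muscle thick filament assembly (contig_398) had 5089 against 1705, 2.79-fold higher (2.64 to 2.94). A heavy chain named skeletal or cardiac muscle (contig_6228) had 3269 against 1018, 3-fold higher (2.79 to 3.22), so contigs with nearly the same name lay on both sides. The 3 smooth muscle heavy chains were 2.34-fold to 2.75-fold higher, led by First_Contig1009 with 1079 against 366; the other 2 lost their call with the median ratio of well-covered contigs set to 0. Lower in depth, muscle heavy chain contig_24247 had 234 against 39 and contig_9134 had 85 against 5.

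The other abundant muscle heavy chains were not called. Contig_6099 had 2681 engorged and 2887 semi-engorged reads, contig_10817 had 2476 against 2515, and contig_1960 had 1855 against 2327. Contig_5969 had 3267 against 1833, a ratio of 1.66 (1.57 to 1.76). All 10 contigs named putative muscle myosin heavy chain take the name from the tick Rhipicephalus pulchellus, and whether the tick proteins are sarcomeric myosins was not tested. Near the threshold, contig_18027 lay just below the call with 318 reads against 122, a ratio of 2.43 (1.97 to 3.02), and contig_6878, a smooth muscle heavy chain just past it, had 754 against 297.

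**Figure D2:**
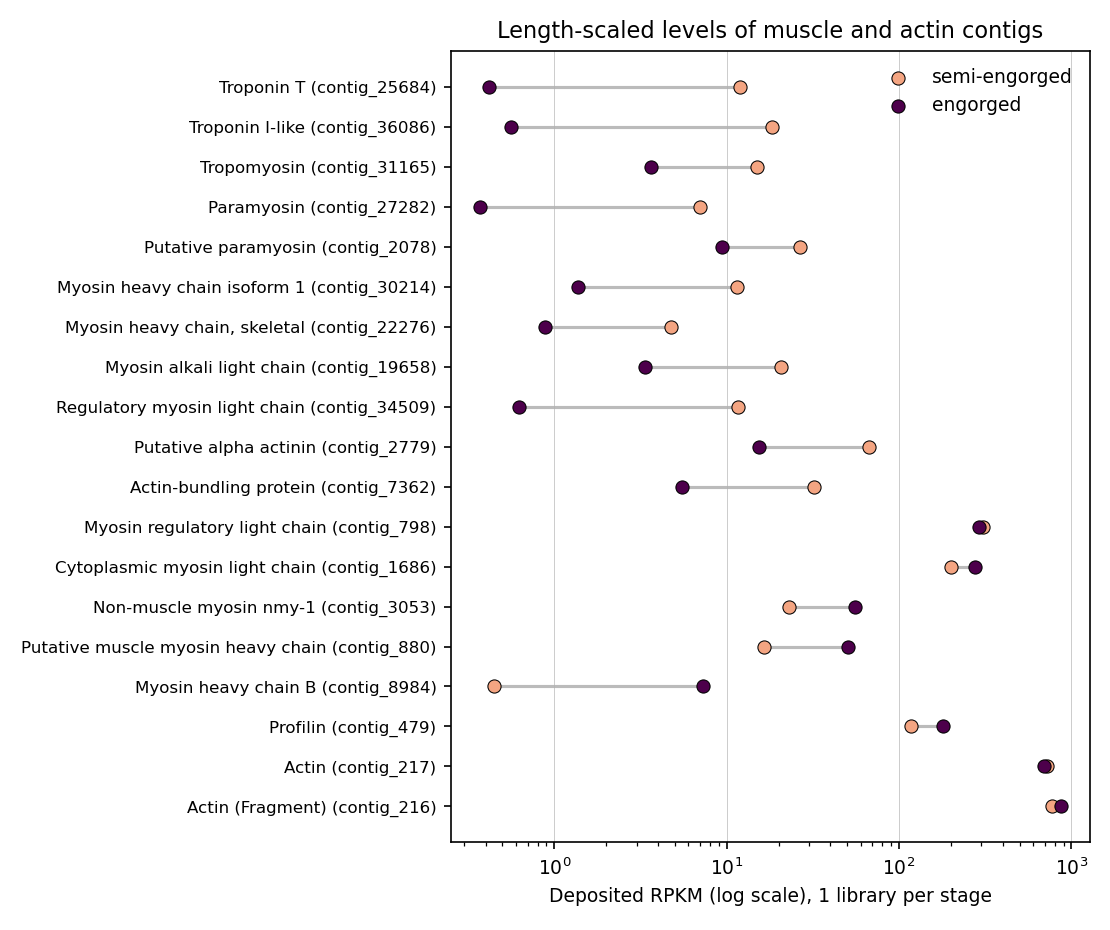
Deposited RPKM (reads per kilobase of contig per 1000000 reads, log axis) of 19 contigs in the semi-engorged (orange) and engorged (purple) library, 1 library per stage. The upper 11 sit to the left in the engorged library, troponin T with 11.9 against 0.415 RPKM, while both actins lie between 690 and 867 RPKM.

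Levels per length put the sarcomere contigs far under the actins. In the semi-engorged library, troponin T stood at 11.9 RPKM, troponin I at 18.3, tropomyosin contig_31165 at 15.0 and the alkali light chain at 20.7, against 717 for actin contig_217. In the engorged library the same contigs stood at 0.415, 0.560, 3.62 and 3.37 RPKM, against 690 for actin contig_217. The chosen contigs were taken from those named by the rule, after their values were seen.

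Actins were named by 8 contigs, 7 of them tested. A pair was called on the engorged side and the other 5 in neither class, which gives 28.6% and 0% of those tested. The background was 13.0% and 15.5%, or 20.7% and 22.4% among contigs with at least 100 reads. The actin contig_216 had 66370 engorged and 55389 semi-engorged reads, a ratio of 1.12 (1.11 to 1.13), and contig_217 had 60750 against 58916, a ratio of 0.963 (0.952 to 0.974). They were the 2 most abundant members and their order between libraries was opposite. Contig_3206 had 7209 against 5963. The called pair, contig_1893 with 3707 against 1593 and contig_962 with 2212 against 935, shares a best match and had ratios of 2.17 and 2.21. Neither of the pair kept its call when the median ratio of well-covered contigs was set to 0. The names do not say which actin is the muscle form, and near-identical actins could share reads. The untested contig, beta-actin contig_55660, best matches a fish, the elephant shark, and had 0 reads against 17. It is numbered above contig_50000, a range in which 65.9% of contigs had no engorged read and 0% no semi-engorged read.

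Myosins named without a tissue came in 22 contigs, with 2 called in each direction, 9.09% each, against 13.0% and 15.5% of all tested contigs. They held the member with the highest ratio toward the engorged library: myosin heavy chain B (contig_8984) had 2234 engorged and 128 semi-engorged reads, 16.3-fold higher (13.6 to 19.6). Myosin heavy chain isoform 1 (contig_30214), whose best match is a water flea protein, went the other way with 292 against 2291, 8.41-fold lower (7.44 to 9.53). A regulatory light chain matching a tardigrade protein (contig_34509) had 12 against 210 and was 18.7-fold lower (10.5 to 36.9).

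The other regulatory light chain, a switch subunit that is phosphorylated in many cell types, differed by a few percent. This contig (contig_798) had 16506 reads against 16182, a ratio of 0.952 (0.932 to 0.973). At 292 and 306 RPKM it was far more abundant than the tardigrade-matching light chain, at 0.626 and 11.7 RPKM. The class II heavy chain First_Contig211 had 13891 against 8462, a ratio of 1.53 (1.49 to 1.57), and contig_2041 had 4661 against 4249. Among contigs called only myosin, contig_7956 had 5783 against 3279, contig_8469 had 2850 against 4566, and contig_9549 had 955 against 326 and was called, 2.73-fold higher (2.41 to 3.11).

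Non-muscle and unconventional myosins drive cell shape and the transport of vesicles. Of 20 contigs 19 were tested, with 3 on the engorged and 1 on the semi-engorged side, 15.8% and 5.26%. All 19 have at least 100 reads, where the background was 20.7% and 22.4%. A contig named for the non-muscle myosin nmy-1 of Caenorhabditis elegans (contig_3053) had 12097 reads against 4648, 2.43-fold higher (2.35 to 2.51). Another non-muscle heavy chain (contig_3438) had 11904 against 6152, 1.81-fold higher (1.75 to 1.86), and the cytoplasmic light chain contig_1686 had 12331 against 8292, 1.39-fold higher (1.35 to 1.43). These 3 lay on the engorged side, only the first past the call.

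Unconventional myosins of classes I and IX were also called. Myosin-IX (contig_3405) had 3361 reads against 1204, 2.61-fold higher (2.44 to 2.79). The class I heavy chain contig_15439 had 1057 against 368, 2.68-fold higher (2.38 to 3.03). Class V myosin, a carrier of vesicles, came in contigs of 3 best matches that differed. Contig_3769 had 9083 against 9109 and contig_3025 had 8813 against 7017, while contig_5186 had 4768 against 10473 and was 2.35-fold lower (2.27 to 2.44). The 3 contigs named myosin binding subunit, part of the phosphatase that switches myosin off, had 63 to 164 reads in each library and ratios of 0.778 to 1.42.

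Crosslinkers tie filaments together, and in muscle alpha-actinin does so at the Z-disc. Of 12 crosslinkers and filament binders, 1 was called on the engorged and 4 on the semi-engorged side, 8.33% and 33.3%, against 20.7% and 22.4% of all contigs with at least 100 reads, a depth that all 12 reach. Of the 4 lower calls, 3 share a best match. Alpha actinin (contig_2779) had 2261 engorged and 9193 semi-engorged reads, 4.36-fold lower (4.16 to 4.56). A calcium-binding actin-bundling protein gave 3 contigs with the same best match: contig_7362 had 2244 against 12113, contig_18453 had 312 against 1885 and contig_12025 had 297 against 1704. Their folds of 5.78, 6.47 and 6.15 lay close together, all lower in the engorged library.

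Other contigs with that bundling name lay on the engorged side. Contig_4803, from another best match, had 9269 reads against 5361, 1.61-fold higher (1.56 to 1.67). From yet another match, contig_5505 had 1715 against 864 and contig_13081 had 122 against 18, the latter called. The LIM protein limatin (contig_5912) had 2496 against 3819, the actin binding protein contig_421 had 3171 against 2192, and both afadin contigs, linkers of actin to cell junctions, had ratios of 1.02 and 1.12. The median of the 12, 0.09, turned to -0.13 with the median ratio set to 0, so no direction is given for the group.

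Proteins of filament assembly, capping and severing counted 3 on the engorged and 1 on the semi-engorged side of 13, 23.1% and 7.69%. All 13 have at least 100 reads, where the background was 20.7% and 22.4%, so the engorged share lay near it. Their median log2 fold was 0.62, from 0.39 to 0.85 under other scalings. Profilin (contig_479), which feeds actin monomers to growing ends, had 26245 reads against 15906, 1.54-fold higher (1.51 to 1.57). The capping protein, which closes the fast-growing end as a heterodimer, had its alpha subunit (contig_1495) at 6910 against 5073 and its beta subunit (contig_7128) at 977 against 1528. Their ratios of 1.27 and 0.597 lay on opposite sides of 1. Brick1 (contig_5766), a small subunit of the complex that switches on Arp2/3, had 1718 against 991.

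The calls in this role fell on less specific names. An actin regulatory protein (contig_710) had 2438 reads against 590, 3.86-fold higher (3.52 to 4.23), and another of the same name but a different match (contig_5957) had 329 against 672, 2.19-fold lower (1.91 to 2.50). A phosphatase and actin regulator (contig_14985) had 1511 against 581, and a contig named for mitochondrial inheritance and actin organization (contig_11667) had 790 against 337. Of these 4 calls, only that of contig_710 held under all scalings tried. The gelsolin and villin family, severing proteins, differed less, with 647 against 716 (contig_16605) and 538 against 674 (contig_13723).

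The Arp2/3 complex nucleates branched filaments, and its subunits did not move as 1 unit. The arpc2 subunit (contig_1067) had 9930 reads against 5237, a ratio of 1.77 (1.71 to 1.83). Subunit 4 (contig_6392) had 1210 against 1568, a ratio of 0.720 (0.668 to 0.777), and a subunit of no stated number (contig_5395) had 846 against 1029. An actin-related protein of no stated kind (contig_14085) had 482 against 140 and was the 1 call among these 4 contigs, 3.21-fold higher (2.66 to 3.91). That gives 25% on the engorged and 0% on the semi-engorged side. All 4 have at least 100 reads, where the background was 20.7% and 22.4%. Of both calponin contigs, actin binders of smooth muscle and other cells, contig_11160 had 1228 against 428, 2.68-fold higher (2.4 to 3), and contig_4912 had 1572 against 1454.

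The 8 contigs set apart as word matches only had log2 folds from -0.48 to 0.71 and none was called. They were cactin (contig_4097, 4155 engorged and 3029 semi-engorged reads), contactin 5 (contig_7114, 3385 and 2005), attractin (contig_10424, 3361 and 1892), an attractin and acetylhydrolase (contig_9915, 1530 and 1597), a vps52 contig (contig_8158, 1290 and 958), a pair of swi/snf contigs and myotactin.

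**Figure D3:**
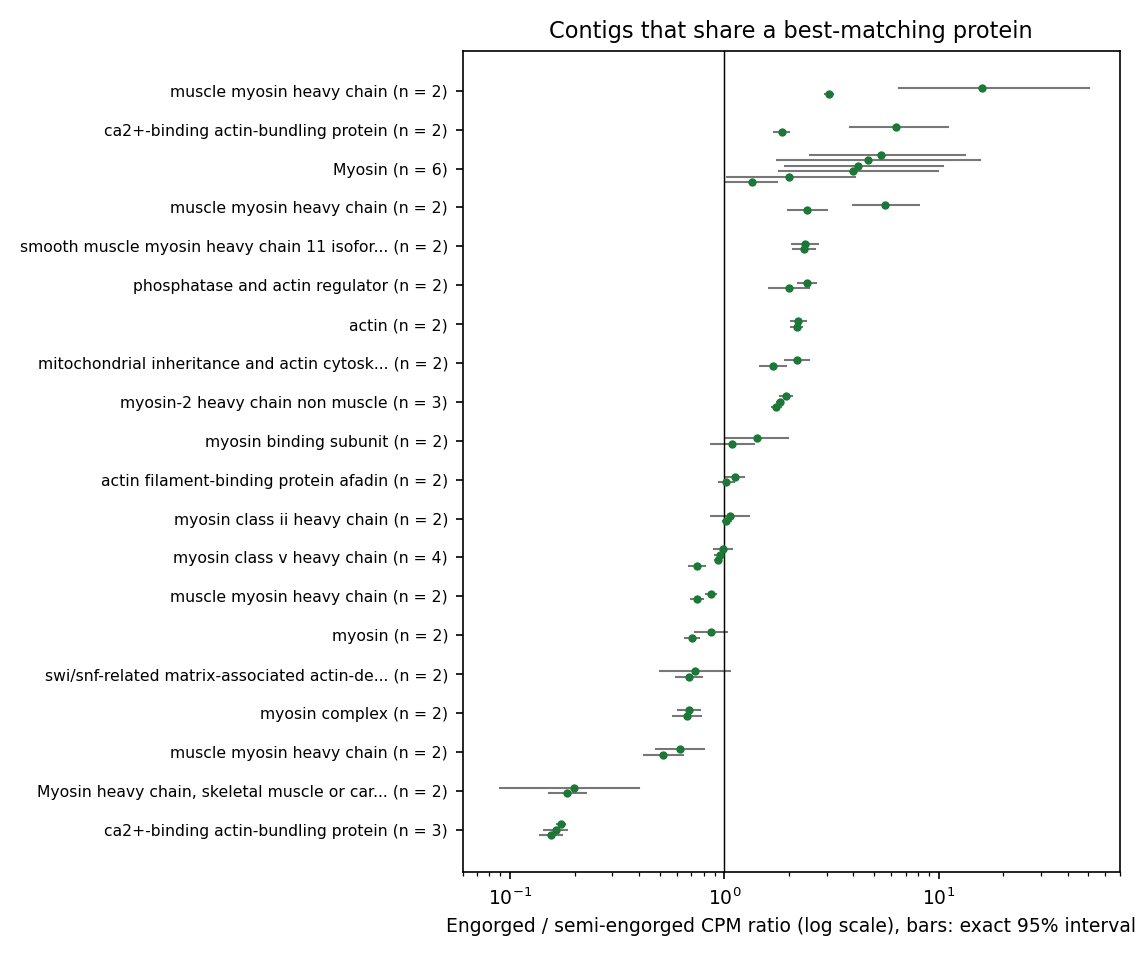
Engorged over semi-engorged CPM ratio (log axis) of 48 contigs grouped by the 20 best matches that at least 2 tested members share; points are contigs and bars exact 95% counting intervals. Most groups sit on 1 side of the line at 1, with the actin-bundling trio lowest at 0.155 to 0.173.

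Contigs with the same best match may be stretches, copies or alleles of 1 gene, so they are not independent. Among all 127 members, 22 best matches were shared by 55 contigs. In 13 of the 22 every contig had a ratio above 1, in 8 every contig had a ratio under 1, and 1 titin match, with 5 contigs of few reads, held both. The 3 non-muscle heavy chains of 1 match ran from 1.74 to 1.94, the 4 class V contigs of 1 match from 0.746 to 0.983, and the 6 contigs called myosin that match 1 Ixodes scapularis protein from 1.34 to 5.37. Opposite directions among members of like name thus mostly lay between different best matches.

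**Figure D4:**
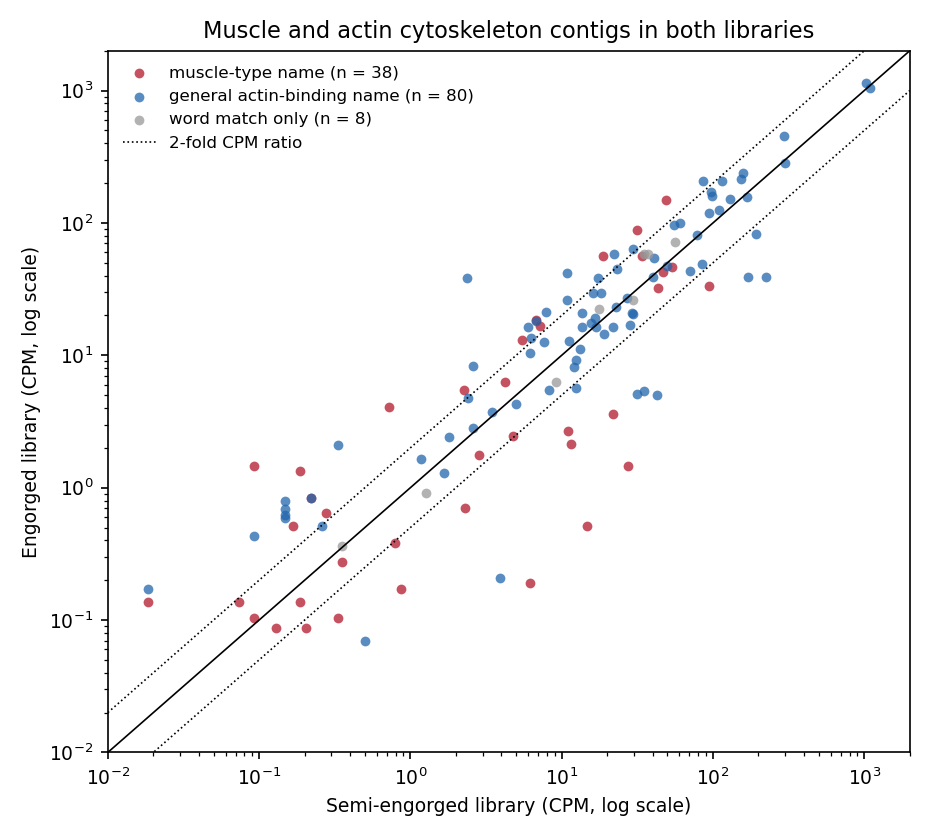
CPM in the semi-engorged (x) and engorged (y) library on log axes for the 126 members with reads in both, colored by name type; the solid line is equality and dotted lines a 2-fold CPM ratio. Muscle-type names lie on both sides of the line, and the 2 actins at the upper end lie on it.

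Other proteins of muscle and of actin control, none of them members, were taken from word lists. Sarcomere and calcium partners counted 3 on the engorged and 6 on the semi-engorged side of 38 tested, with a median log2 fold of -0.20. These are 7.89% and 15.8%, against 13.0% and 15.5% of all tested contigs. Of the 38, 10 lay below 1 CPM in both libraries and could not be called. Many names on the list are calmodulin-dependent enzymes that work outside muscle. Kettin, a titin-family protein of arthropod muscle, was named by 7 contigs that summed to 16 reads against 905, 60.6-fold lower in the engorged library (37.1 to 106). The deepest (contig_24098) had 16 against 638, and contig_52824 had 0 against 125. Of the 7, 6 had 0 engorged reads, and these 6 are numbered above contig_50000, a range where 65.9% of 5632 contigs had no engorged read and 0% no semi-engorged read, against 1.42% and 1.92% of all other contigs. The part of that pattern in the kettin result was not tested.

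Of the same list, arginine kinase (contig_26460), which buffers ATP in arthropod muscle, had 8 reads against 195, 26.1-fold lower (13.0 to 61.3). The muscle LIM protein (contig_6898), a Z-disc protein, had 371 against 1918, 5.54-fold lower (4.95 to 6.21). The deepest dystrophin (contig_15714), a link from actin to the membrane, had 1944 against 4216, 2.32-fold lower (2.20 to 2.45), while a dystrophin-like contig (contig_507) had 1382 against 1313. The sixth lower call was a calmodulin-dependent kinase II (contig_2231) with 5909 against 11949. Of the 3 called on the engorged side, calmodulin-binding protein crag (contig_130) had 9359 against 1926 and a membrane-associated guanylate kinase (contig_20490) 718 against 180. The last of them, a calmodulin regulated spectrin-associated protein (contig_637), had 7240 against 3152. Its name also placed it in the list of actin assembly and membrane linkers given next, where it counts among the engorged calls. The calcium pump of the sarcoplasmic and endoplasmic reticulum (contig_552) had 13822 against 20894 and was not called. Ryanodine receptor contigs, the calcium release channel, had at most 45 reads in either library, all 5 with more in the engorged one.

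The list of actin assembly and membrane linkers counted 8 and 2 of 18, 44.4% and 11.1% against 20.7% and 22.4% of all contigs with at least 100 reads, with a median of 0.98, from 0.75 to 1.20 under other scalings. Beta thymosin (contig_517), which holds actin monomers, had 68229 reads against 14675, 4.34-fold higher in the engorged library (4.26 to 4.42). Coronin (contig_366) had 14535 against 2391, 5.67-fold higher (5.43 to 5.93), and talin (contig_351), which ties integrins to actin, had 10253 against 4025, 2.38-fold higher (2.29 to 2.47). The 2 called lower were beta-spectrins, part of the lattice under the membrane, with 17208 against 58855 (contig_659) and 18253 against 40101 (contig_496).

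Tubulins and microtubule motors, the other filament system, counted 16 and 2 of 98, 16.3% and 2.04% against 13.0% and 15.5%, with a median of 0.33.

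Markers of other cells were summed beside these results. Salivary secretory names, which mark the gland, took 11100 engorged and 14000 semi-engorged CPM (72 and 147 of 324 called, 22.2% and 45.4%). Nerve names took 1070 and 1280 CPM (7 and 13 of 56 called, 12.5% and 23.2%), and haemocyte and fat body names 2090 and 2080 CPM (4 and 0 of 32, 12.5% and 0%). Midgut and cuticle names took 153 and 412 CPM (1 and 10 of 30 called, 3.33% and 33.3%), with a cuticle protein (contig_24524) at 74 reads against 2472. Host blood names took 49.6 and 30.8 CPM (3 and 0 of 6 called, 50% and 0%). The calls were hemoglobin beta (contig_13726, 927 reads against 166), hemoglobin alpha (contig_1325, 786 against 148) and serum albumin (contig_35264, 83 against 4). Their ratios were 5.21, 4.96 and 19.4. The other tested names matched by the word immunoglobulin and need not be of host blood, led by contig_10745 with 1067 against 1276. Over all tested contigs, 13.0% and 15.5% were called. The nerve sum was lower in the engorged library, but its direction leaned on a synaptotagmin (contig_2569) with 8989 reads against 29527. The next deepest nerve contig (contig_2896) had 14255 against 7922. The salivary secretory, and midgut and cuticle sums were also lower in the engorged library, as were both troponins, the deepest tropomyosin and kettin. The part of any of these cells in the troponin, tropomyosin and kettin results was not tested.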

How the data were processed

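For both libraries, the table that the authors deposited lists raw read counts and RPKM per contig, per its header. The submitters' processing notes mention TopHat, Cufflinks and CASAVA 1.8 without saying what each did. How contigs were assembled, annotated and counted is not given in the sources used here. Deposited RPKM values and counts together gave whole contig lengths to within 0.000232 bases.

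Counts were scaled by column totals to CPM with Python 3.11.15 and pandas 2.3.3, and intervals used scipy 1.17.1. Trimmed-mean (TMM) scaling came from edgeR 4.0.16, used for scaling only. Contigs were tested for the size rule with at least 20 reads in all, a pseudocount of 1 CPM and a log2 threshold of 1. The call rule was run on simulated counts with known folds larger than the threshold. These held counting noise only, without variation between libraries, so the run cannot show whether a call would repeat. Named in each role were the 5 deepest members and every called member of 100 or more reads on its higher side, 72 contigs in all; others were added after their values were seen. Members, lists and rules were chosen with earlier results of these data known. Roles follow words in the names. No sequences were used here. The reads carry no molecular identifiers. Alternatives were other pseudocounts, filters, thresholds and scalings, RPKM, 1 contig per description and other splits of names. One list of signalling proteins is not reported here.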

Additional observations from a re-analysis of the deposited data

How the results depend on the processing

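No paired analysis was possible because each stage has 1 library. Over 17032 contigs well covered in each library (100 reads or more), the median log2 ratio was 0.23, or 0.46 with totals that left out the 50 most abundant contigs. Called members have a log2 fold of at least 1 in size, and the 4 scalings moved the median log2 ratio only between 0 and 0.46. The signs of the 36 called members therefore could not turn, and none did. The call itself was kept by 15 of 21 higher in the engorged and 14 of 15 higher in the semi-engorged library. Counts are given as higher in the engorged, then in the semi-engorged library. Muscle-type counts of 8 and 7 became 3 and 4 with a pseudocount of 10 CPM, and 0 and 4 at a log2 fold of 2. General counts of 13 and 8 became 4 and 6, and 1 and 6, in the same settings, for which all contigs were not counted. With 1 contig per identical description the counts were 5 and 7 for muscle-type and 9 and 4 for general names. With plain actin, myosin and calponin names counted as muscle-type they were 13 and 9, and 8 and 6. With smooth muscle names counted as general, an alternative chosen after seeing the data, the muscle-type count was 5 and 7, and with putative muscle myosin heavy chain names so counted, also chosen after seeing the data, 5 and 7. The ratio of summed shares, 1.17 for muscle-type names, turned to 0.997 with the median ratio set to 0, to 0.969 without contig_880 and to 0.928 without the putative muscle heavy chains, and was 1.37 without the 50 most abundant contigs in the totals, 1.09 with plain names and 1.12 without smooth muscle names. The general ratio, 1.09, turned to 0.929 with the median ratio set to 0, and was 1.28 without the 50 most abundant contigs, 1.09 without its most abundant member, and 1.11 both with plain names and with the putative heavy chains moved. Setting the median ratio to 0 lowers every ratio by the same factor, and the other turns come from taking contigs out of the sum. Why the median log2 ratio of well-covered contigs differs from 0 was not tested.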

Other observations

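Best matches by species gave these values. Of the 127 contigs, 87 match Rhipicephalus pulchellus proteins, with 19 called on the engorged and 7 on the semi-engorged side, 21.8% and 8.05%. Another 17 match Ixodes scapularis, with 2 and 1 of 14 tested, 14.3% and 7.14%. Of all tested contigs 13.0% and 15.5% were called, and of those with at least 100 reads 20.7% and 22.4%. The 5 that match Haemaphysalis proteins, all of muscle, were all higher in the semi-engorged library and summed to 486 reads against 4393. These divisions were made after the values were seen.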
